A study of Mus musculus with 237 samples.

Results

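The nuclear-encoded subunits of oxidative phosphorylation were followed in single cells of the embryonic mouse kidney. Members were all entries of the deposited expression table whose symbol begins as a gene of complex I (Nduf a, b, c, s or v with a number), II (Sdha to Sdhd), III (Uqcr), IV (Cox4 to Cox8) or V (Atp5). The rule found 87 of 36186 entries: 37 of complex I, 4 of complex II, 8 of complex III, 18 of complex IV and 20 of complex V. The choice rests on names, so a few entries are not core subunits. Ndufa4 is now counted to complex IV, Cox7a2l acts in supercomplex assembly, Atp5s and Atp5sl are related factors, and Atp5c1-ps, Atp5l-ps1 and, by its description, Atp5l2 are pseudogenes.

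Oxidative phosphorylation makes ATP in the inner mitochondrial membrane. Complex I (NADH dehydrogenase) and complex II (succinate dehydrogenase, also an enzyme of the citric acid cycle) pass electrons to ubiquinone, complex III passes them to cytochrome c, and complex IV reduces oxygen. Complexes I, III and IV pump protons, and complex V, the ATP synthase, uses the gradient. Most subunits are encoded in the nucleus and a small core in the mitochondrial genome, with complex II wholly nuclear. In the developing kidney, nephron progenitors are known for their use of glycolysis, and mature tubules for their dense mitochondria.

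Cells were freed by protease digestion, enriched by flow sorting and captured in a Fluidigm C1 device, and each sample is 1 cell. The groups at E18.5 (the embryonic day) were wild-type cap mesenchyme, the nephron progenitor tissue, with its descendants (74 cells), wild-type interstitium or stroma (71) and Pax2 mutant cap mesenchyme (44). The groups at E13.5 were wild-type (18) and Pax2 mutant (29) cap mesenchyme. Strings of 5 values below keep this order unless groups are named. The strain of every group is given as mixed. The titles of the E18.5 cap cells carry the word CTRL, those of the interstitium cells FoxD1_GCE, those of the E13.5 cap cells WT and those of the mutant cells Pax2_Mutant. The labels do not say which Pax2 allele or which sort marker was used, and the titles give each group a date of its own, so date and group cannot be told apart. No label names an embryo. Each group therefore counts as 1 sample, no p-value or standard error was computed, and every SD below is the spread between cells.

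Values are RPKM (reads per kilobase of transcript, scaled to the mapped reads of the cell), which puts genes of different length on 1 scale, and levels are log2(RPKM + 1). Pax2, a transcription factor of the nephron lineage, was at 1 RPKM or more in 56 of the 74 wild-type cap cells of E18.5, 15 of the 18 of E13.5, 17 of the 29 E13.5 mutant cells and 18 of the 71 interstitium cells. It was found in 0 of 44 E18.5 mutant cells, which allows a share of up to 6.82%. The progenitor markers were lower in the mutant cells of both ages than in cap cells, and near 0 in many E18.5 mutant cells. The 8 listed progenitor markers had a summed level of 2.84 to 49.4 with a median of 32.7 in E18.5 cap cells, and of 0 to 16.9 with a median of 0.79 in E18.5 mutant cells, with Cited1 at 0 in all 44. The 8 interstitium markers had a median of 8.24 in E18.5 cap (0 to 47.1), 37.6 in interstitium (6.36 to 55) and 38.7 in E18.5 mutant cells (12.4 to 56.1). At E13.5 the progenitor markers had a median of 27.5 in cap (0.37 to 44.5) and 5.13 in mutant cells (0 to 22.7), and the interstitium markers of 13.1 (0.72 to 49.2) and 18.9 (0.16 to 50.3). Whether these shifts have a part in the differences below was not tested. Single cells also carried markers of other cell types and were kept. The summed level reached 37.5 for 5 immune markers in E18.5 mutant cells and 35.9 for 6 ureteric markers in E13.5 mutant cells. It reached 27.3 for 5 endothelial markers in E13.5 cap cells. The medians of these 3 lists in these groups were 0. Median numbers of genes at 1 RPKM or more were 5210.5, 5178, 3643, 5566 and 4560 by group, and read depth is unknown.

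Stretches before the start sites are shown first for 6 members. Atp5g1, Atp5g2 and Atp5g3 encode the same mature c subunit of the ATP synthase ring but differed in the mutant cells. Uqcr11 and Sdhd stand for the complexes with the largest mutant differences, and Cox6b2 is an isoform that went the other way. They come from RefSeq promoter windows of GRCm38.p6, which matched 69 of the 87 members, and are printed 5′ to 3′ on the gene's strand, up to 250 bases ending just before the start site. All 6 lie on the minus strand: Atp5g1 at chr11:96075695-96075881, Atp5g2 at chr15:102671048-102671297, Atp5g3 at chr2:73911327-73911576, Uqcr11 at chr10:80406822-80407071, Sdhd at chr9:50603850-50604099 and Cox6b2 at chr7:4753095-4753344. For Atp5g1, 63 bases inside the deposited gene model were left out. Capitals mark matches to a palindromic motif of the factor NRF1 or to CCGGAAG, an ETS-family motif, on either strand. NRF1 and the ETS factor GABP are textbook regulators of respiratory chain genes.

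Atp5g1: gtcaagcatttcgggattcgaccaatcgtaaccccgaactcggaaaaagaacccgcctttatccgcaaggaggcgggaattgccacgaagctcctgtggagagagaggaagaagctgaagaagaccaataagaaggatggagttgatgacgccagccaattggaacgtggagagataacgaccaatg
Atp5g2: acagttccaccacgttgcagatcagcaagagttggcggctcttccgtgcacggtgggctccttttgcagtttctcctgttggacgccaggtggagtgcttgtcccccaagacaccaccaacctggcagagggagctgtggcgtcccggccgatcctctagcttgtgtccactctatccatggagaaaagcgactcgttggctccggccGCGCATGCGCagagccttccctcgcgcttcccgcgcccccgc
Atp5g3: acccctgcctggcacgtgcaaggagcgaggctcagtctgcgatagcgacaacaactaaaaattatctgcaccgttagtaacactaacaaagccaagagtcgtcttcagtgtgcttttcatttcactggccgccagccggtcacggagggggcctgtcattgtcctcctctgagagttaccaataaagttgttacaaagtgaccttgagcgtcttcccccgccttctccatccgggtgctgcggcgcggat
Uqcr11: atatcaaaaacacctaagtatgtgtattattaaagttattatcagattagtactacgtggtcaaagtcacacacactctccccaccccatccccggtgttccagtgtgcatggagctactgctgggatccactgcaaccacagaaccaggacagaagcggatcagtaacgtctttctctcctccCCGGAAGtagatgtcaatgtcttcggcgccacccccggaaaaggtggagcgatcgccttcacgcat
Sdhd: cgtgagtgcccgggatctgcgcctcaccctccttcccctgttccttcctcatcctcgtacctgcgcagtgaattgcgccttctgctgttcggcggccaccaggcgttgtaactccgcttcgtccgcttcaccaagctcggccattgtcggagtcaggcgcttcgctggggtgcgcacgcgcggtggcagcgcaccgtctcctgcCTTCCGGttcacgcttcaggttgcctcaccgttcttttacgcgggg
Cox6b2: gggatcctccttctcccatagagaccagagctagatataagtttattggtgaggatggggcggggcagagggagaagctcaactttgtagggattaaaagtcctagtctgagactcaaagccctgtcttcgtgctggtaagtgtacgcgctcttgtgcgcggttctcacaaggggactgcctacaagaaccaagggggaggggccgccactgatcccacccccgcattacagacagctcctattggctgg

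Atp5g2 has the NRF1 letters beginning 42 bases before its start, and Atp5g1 and Atp5g3 have neither motif in the bases shown. Uqcr11 and Sdhd carry the ETS letters 66 and 46 bases before theirs. In windows of 250 bases, the NRF1 letters were in 4 of 69 members (5.8%: Atp5g2, Atp5k, Cox6a1 and Ndufa11), against 1.05% of 18608 genes with a window and 2.09% of 2918 genes found in at least 50% of labelled cells. The ETS letters were in 11 members (15.9%), against 9.1% and 17.2%. A YY1 motif was in 0 members, 0.274% and 0.617%, and its spelling can overlap the ETS one. A match says only that the letters are there.

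Most members were widely found. Of the 87, 74 were at 1 RPKM or more in at least 50% of the 236 labelled cells: 36 of complex I, all 4 of II, all 8 of III, 11 of IV and 15 of V. The highest mean level over all labelled cells was that of Ndufa4 in complex I (7.63), Sdhb in II (5.74), Uqcrh in III (7.02), Cox6a1 in IV (8.59) and Atp5b, the catalytic beta subunit, in V (7.52). The lowest in complexes I to III were Ndufa4l2 (0.38), Sdhc (4.33) and Uqcrfs1, the Rieske iron-sulphur protein (3.67). At 0 in every labelled cell were Cox6a2, Cox8c, Atp5l2, Atp5c1-ps and Atp5l-ps1, for each of which 0 of 236 cells allows a share of up to 1.27%. A further 67 entries are annotated as pseudogenes of such subunits or of assembly factors. Of the 67, 3 were at 1 RPKM or more in at least 10% of labelled cells. Of these Gm10012, a Cox7c pseudogene, was found in 88.6% and BC002163, an Ndufs5 pseudogene, in 69.1%, so Cox7c and Ndufs5 are uncertain where reads could be split. The third, LOC100503946, was found in every cell. The table has no entry under the names of the 13 mitochondrially encoded subunits.

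The mean level over all 87 entries, the module score, was 4.84 ± 1.57 (SD) in E18.5 cap cells, with a lowest, median and highest cell of 0.73, 5.53 and 6.55. Interstitium cells stood at 5.38 ± 0.99 (2.06, 5.75, 6.27) and E18.5 mutant cells at 3.99 ± 1.18 (0.92, 4.08, 5.64). E13.5 cap cells stood at 5.81 ± 0.78 (2.78, 6.01, 6.24) and E13.5 mutant cells at 4.17 ± 1.93 (0.70, 5.21, 6.32). All 5 groups overlapped. The order of the means was E13.5 cap, interstitium, E18.5 cap, E13.5 mutant and E18.5 mutant, and every neighbouring pair differed by less than 1 SD between cells.

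**Figure D1:**
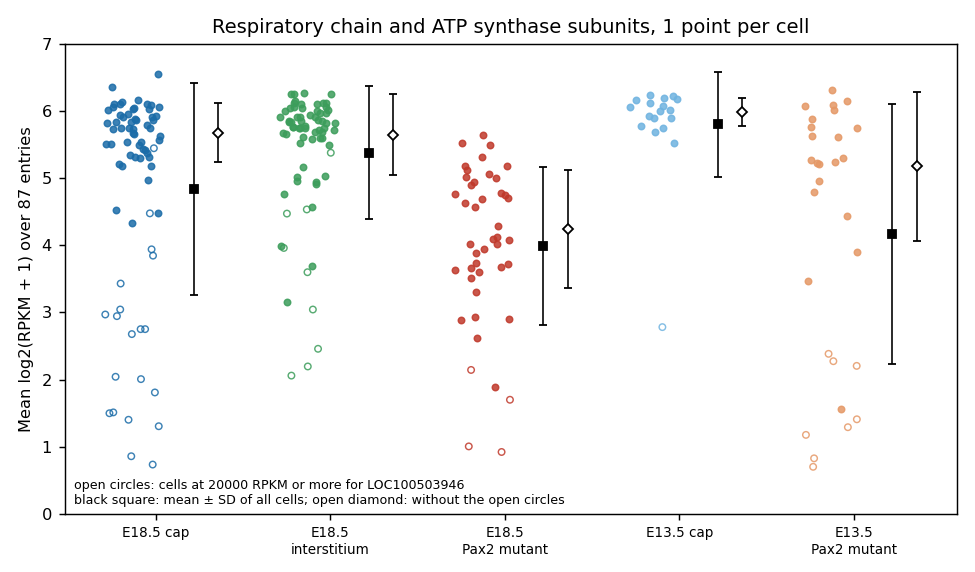
Mean log2(RPKM + 1) over the 87 subunit entries (vertical axis), 1 point per cell, for the 5 groups; open circles are cells at 20000 RPKM or more for LOC100503946, the black square is the mean ± SD of all cells and the open diamond that without the open circles. Low scores in the E18.5 cap group belong mostly to open circles, while the E18.5 mutant group is spread between 1.88 and 5.64 without them.

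The spread went along with the level of a single entry. LOC100503946 (chromosome 1, 24613971 to 24614812, mm10) is annotated as a pseudogene of ATP synthase F0 subunit 6, a subunit whose functional gene is mitochondrial. It was at 20000 RPKM or more, called pseudogene-high here, in 42 of 236 labelled cells: at E18.5, 20 of 74 wild-type cap cells (27%, 95% exact Clopper-Pearson interval 17.4 to 38.6%), 9 of 71 interstitium cells (12.7%, 5.96 to 22.7%) and 4 of 44 mutant cells (9.09%, 2.53 to 21.7%), and at E13.5, 8 of 29 mutant cells (27.6%, 12.7 to 47.2%) and 1 of 18 wild-type cap cells (5.56%, 0.141 to 27.3%). The intervals cover counting error only. In E18.5 cap cells the last value under the threshold was 19175 RPKM and the first above it 23047. The table has no entry under the name of the mitochondrial gene, and whether its reads were counted under LOC100503946 was not tested.

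Pseudogene-high cells had fewer members at 1 RPKM or more. Fewer than 50% of the members were at 1 RPKM or more in 27 of these 42 cells and in 8 of the 194 others. In the E18.5 cap group the median score was 2.71 (0.73 to 5.45) in the 20 pseudogene-high cells and 5.75 (4.34 to 6.55) in the other 54, with medians of 37.5 and 74 members found. Median genes found were 4003 and 5544.5, so fewer genes of all kinds were found beside the lower score. Spearman's rho between the score and the pseudogene was -0.71 in E18.5 cap, -0.57 in interstitium, -0.49 in E18.5 mutant, -0.74 in E13.5 cap and -0.66 in E13.5 mutant cells (n = 74, 71, 44, 18 and 29). Between the score and the number of genes found it was 0.86, 0.63, 0.81, 0.63 and 0.90. These values describe cells of groups that count as 1 sample each, and both measures are read from the same RPKM columns. The part of cell or RNA quality was not tested.

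**Figure D2:**
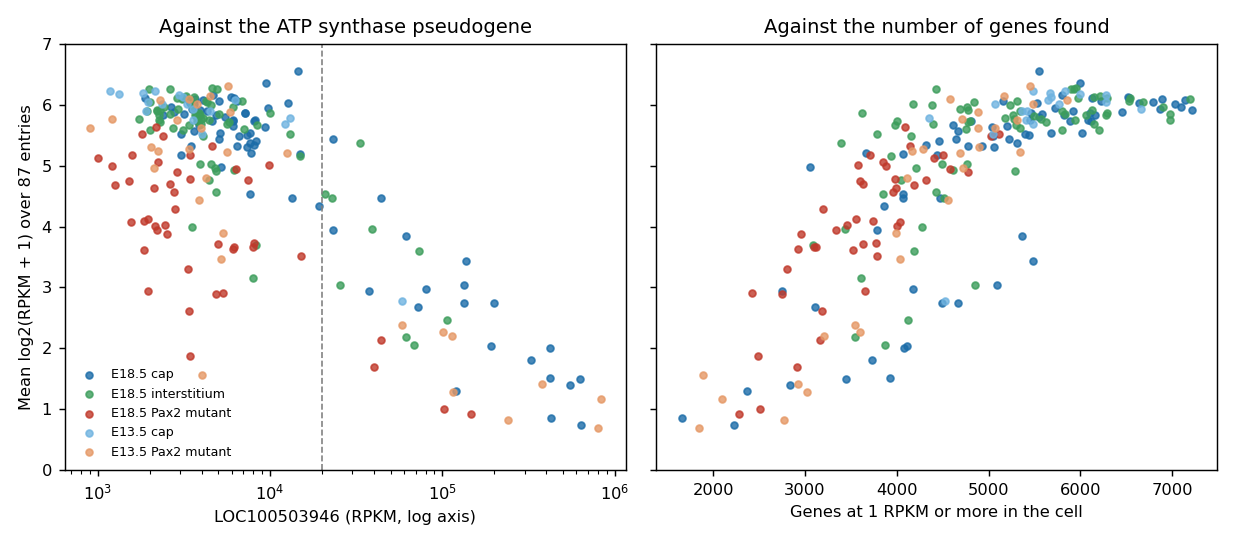
Module score of each labelled cell (vertical axis) against LOC100503946 in RPKM on a log axis (left; the dashed line is 20000 RPKM) and against how many genes reached 1 RPKM in the cell (right), coloured by group. Right of the dashed line no cell has a score above 5.45.

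Without the 42 pseudogene-high cells, the scores were 5.68 ± 0.44 in 54 E18.5 cap, 5.65 ± 0.60 in 62 interstitium, 4.25 ± 0.88 in 40 E18.5 mutant, 5.98 ± 0.21 in 17 E13.5 cap and 5.17 ± 1.11 in 21 E13.5 mutant cells. The wild-type groups lay close together, and the E18.5 mutant group stood apart from them by more than 1 SD. Groups still overlapped: 5.64, the highest E18.5 mutant cell, exceeded the lowest E18.5 cap cell at 4.34. Genes found still differed, with medians of 5544.5, 5297, 3722, 5652 and 4724.

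The score mixes how many cells hold a transcript with how much they hold. Over all cells and members, 72.7% of values were at 1 RPKM or more in E18.5 cap, 78.7% in interstitium, 60% in E18.5 mutant, 82.2% in E13.5 cap and 64.8% in E13.5 mutant cells. The mean level of those values alone was 6.65, 6.83, 6.63, 7.06 and 6.43. Summed RPKM of the members had a median of 2.98% of all RPKM in E18.5 cap, 3.37% in interstitium, 2.79% in E18.5 mutant, 3.62% in E13.5 cap and 3.14% in E13.5 mutant cells. From E18.5 cap to E18.5 mutant cells, the share of cells with a member was lower for 70 of 78 members, by a median over members of -13.7 percentage points, while the median difference of level in the cells that had it was -0.12. From E13.5 cap to E13.5 mutant cells the share was lower for 73 of 77 (median -20.7 points) and the level differed by a median of -0.79, by at least 1 log2 unit lower for 26. The same counts were not made over all genes, and mutant cells had a lower median number of genes found at both ages. These counts are therefore no result about the subunits alone. The part of sequencing depth in these shares was not tested.

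For each comparison, members were kept that reached 1 RPKM in at least 10% of the cells of either group, and a member was counted as higher or lower where group means differed by at least 1 log2 unit (2-fold). Such counts stand beside the percentage over all genes treated alike. Most members are widely found, so each count is also given for the 75 or 76 members at 1 RPKM or more in at least 50% of the cells of either group, beside all genes kept by that stricter filter.

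E18.5 Pax2 mutant cells had lower levels of many subunits than E18.5 cap cells, most of all in complexes II and III. Of 78 members kept, 38 were lower and 1, Ndufv3, was higher, against 23.2% lower and 4.51% higher over all 11100 genes. Of the 75 widely found members 38 (50.7%) were lower, near the 42.3% of widely found genes, of which 6.4% were higher. The mean difference was -0.95 (group means 4.45 and 5.39), and the median over all genes was -0.40. By complex it was -0.88 for I, -1.56 for II, -1.56 for III, -0.57 for IV and -0.94 for V. Without pseudogene-high cells 56 of 78 were lower and 0 higher (30.6% and 4.19% of all genes), with the 38 all among the 56. Of the 75 widely found members 56 (74.7%) were then lower, against 53.2% (5.42% higher) of widely found genes. The mean was -1.60 (complexes I to V: -1.53, -2.35, -2.16, -1.25 and -1.54). As log2 ratios of mean RPKM the mean over members was -0.11, with 9 of 78 lower and 3 higher, against 22.3% lower and 18.6% higher over all genes, so the members' shares lay below those of all genes. Among 33 mutant and 26 cap cells with 3000 to 5000 genes it turned to 0.26 (20 higher, 7 lower), against 9.17% higher and 10.5% lower over all genes. With pseudogene-high cells left out as well, 32 mutant and 14 cap cells differed by -0.87 (4 higher, 32 lower), against 7.37% and 17.9%. The groups also differ in pool and date, which cannot be told apart from genotype here.

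Complex I was lower for 17 of 37 members (45.9%), near the 42.3% of widely found genes (23.2% of all genes). Differences lay above 0 for 10 of the 37. The largest lower differences in complex I were those of Ndufs8, an iron-sulphur subunit, at -2.75, and of Ndufa1 at -2.74. Ndufa1 is a small membrane subunit encoded on the X chromosome. Ndufa1 had a lowest, median and highest value of 0, 84.2 and 326 RPKM in E18.5 cap, 0, 106 and 389 in interstitium and 0, 0 and 416 in E18.5 mutant cells. It was at 1 RPKM or more in 60 of 74 (81.1%), 63 of 71 (88.7%) and 19 of 44 cells (43.2%, interval 28.3 to 59%). The groups overlapped, and the mutant group held fewer cells with the transcript. Of the catalytic subunits, Ndufv1, which binds NADH, differed by -2.27 and Ndufs1 by -1.41. Ndufv3, a small flavoprotein subunit at the NADH end, was the only member higher by 1 log2 unit. Its medians were 12.3 RPKM in E18.5 cap and 43.9 in mutant cells. The difference was 1.08, or 0.62 without pseudogene-high cells.

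All 4 subunits of complex II were lower, against 23.2% of all genes and 42.3% of widely found genes. Sdha, the flavoprotein, differed by -1.17, Sdhb, the iron-sulphur subunit (chromosome 4, 140961271 to 140979192), by -2.48, and the membrane anchors Sdhc and Sdhd by -1.04 and -1.53. Sdhb ran over 0, 157 and 2885 RPKM (lowest, median and highest) in E18.5 cap cells, 0, 158 and 1720 in interstitium cells and 0, 7.22 and 672 in E18.5 mutant cells. It was found in 63 of 74 (85.1%, interval 75.0 to 92.3%), 67 of 71 (94.4%, 86.2 to 98.4%) and 23 of 44 cells (52.3%, 36.7 to 67.5%). In cells that had it, its mean level was 7.05, 7.21 and 6.69. Without pseudogene-high cells the 4 differences were -1.89, -3.36, -1.92 and -2.24. As a ratio of mean RPKM Sdhc turned to 0.24, and in cells with 3000 to 5000 genes Sdhc and Sdhd turned to 0.49 and 0.09.

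Complex III was lower for 6 of 8 members (75%), against 23.2% of all genes and 42.3% of widely found genes. Uqcrq, a small subunit, differed by -2.31, Uqcrfs1 by -2.29 and the core protein Uqcrc1 by -1.62. Uqcrc1 had medians of 105 RPKM in E18.5 cap and 8.10 in mutant cells and was found in 82.4% and 54.5% of them, and in cells with 3000 to 5000 genes it turned to 0.24. Uqcrh, the hinge protein, differed by -0.56, with medians of 257 and 232 RPKM.

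Complex IV differed least, with 3 of 12 members lower (25%). That share was near the 23.2% of all genes and below the 42.3% of widely found genes, so it is no result about complex IV. Cox4i1, a structural subunit found in nearly every cell, had lowest, median and highest values of 0, 444 and 4564 RPKM in E18.5 cap and 0, 447 and 5352 in mutant cells, and its difference was 0.23, or -0.43 without pseudogene-high cells. Cox7a2 was lowest at -1.69. Cox5a differed by -1.28, with medians of 36.5 and 4.59 RPKM, and by -2.41 without pseudogene-high cells, but its log2 ratio of mean RPKM was 0.44, and the highest mutant cell stood at 1357 RPKM. Cox7c, with its pseudogene, was level at -0.01.

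In complex V, 8 of 17 members kept were lower (47.1%), near the 42.3% of widely found genes (23.2% of all genes). Atp5b differed by -1.63 and Atp5a1, the alpha subunit, by -1.50. Atp5b ran over 0, 319 and 1777 RPKM in E18.5 cap and 0, 112 and 1109 in mutant cells and was found in 72 of 74 and 38 of 44. The c-subunit genes split. Atp5g1 had medians of 188 RPKM in E18.5 cap and 53.5 in mutant cells (difference -2.01), Atp5g2 of 254 and 98.2 (-2.00), and Atp5g3 of 182 and 166 (-0.14). Without pseudogene-high cells the 3 differences were -2.79, -2.67 and -0.60. Of these 3 genes only Atp5g2 has the NRF1 letters in the bases printed above.

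**Figure D3:**
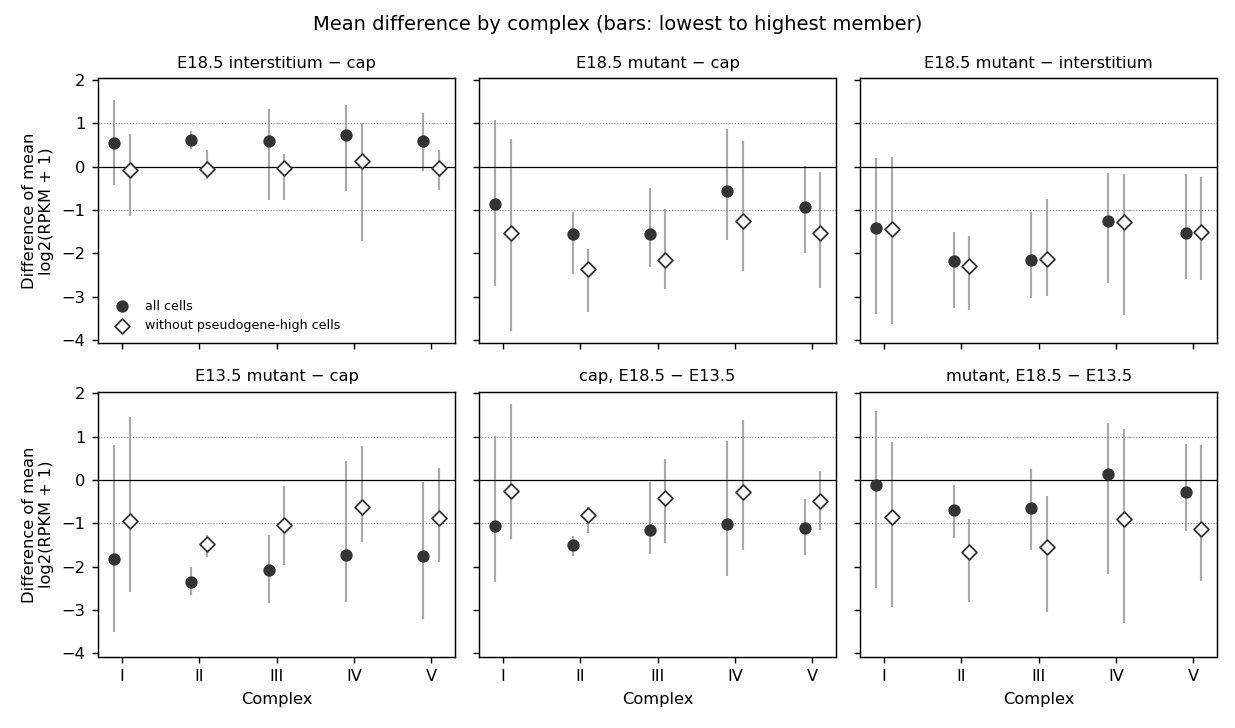
Difference of mean log2(RPKM + 1) (vertical axis) by complex (horizontal axis) in the 6 comparisons, with all cells (filled circles) and without pseudogene-high cells (open diamonds); grey bars run from the lowest to the highest member kept, and dotted lines mark 1 log2 unit. E18.5 mutant cells lie below interstitium cells in every complex by either measure, while the interstitium to cap difference lies between -0.08 and 0.13 without those cells.

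Against interstitium cells, whose markers they carried, E18.5 mutant cells had 56 of 79 members lower and 0 higher (23.4% and 2.05% of all genes). All 56 were among the 75 widely found members (74.7%), against 43.6% lower and 3.47% higher of widely found genes. The mean difference was -1.53 and -1.55 without pseudogene-high cells, where 53 were lower, 51 of them the same members (24.3% lower and 2.38% higher of all genes). Widely found members were then lower in 70.7%, against 45.2% (3.86% higher) of widely found genes. With all cells the mean difference by complex, I to V, was -1.42, -2.17, -2.16, -1.25 and -1.53. The largest of single members, also with all cells, were Ndufa1 (-3.40), Sdhb (-3.27), Uqcr11 (-3.04), Cox5a (-2.69) and Atp5b (-2.60), and Cox4i1 differed by -0.25. In cells with 3000 to 5000 genes the mean was -0.62 (28 lower, 2 higher), against 11.5% and 4.97% over all genes, and without pseudogene-high cells as well it was -1.06 (39 lower, 0 higher), against 15.5% and 5.04%. As log2 ratios of mean RPKM the mean over members was -0.36, with 10 lower and 1 higher, against 21.2% and 14.7% of all genes, again below the shares of all genes. This comparison shares the mutant cells with the one before.

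At E13.5 the mutant cells had 69 of 77 members lower than cap cells and 0 higher, against 27.7% and 1.43% of all genes, with a mean of -1.85 and a median over all genes of -0.45. Of 75 widely found members 68 (90.7%) were lower, against 51.3% lower and 1.64% higher of widely found genes. By complex, I to V, the means were -1.83, -2.35, -2.08, -1.72 and -1.76. Ndufb6 (-3.51), Atp5g2 (-3.21), Uqcr11 (-2.84), Cox7a2 (-2.80) and Sdhd (-2.66) led their complexes. Atp5j2 was level at -0.04, and Ndufv3 stood at 0.80. Leaving out the 8 mutant cells and 1 cap cell that were pseudogene-high took the mean to -0.92 and the count to 42 lower, all among the 69, with Ndufv3 alone higher at 1.45 (19.3% and 3.03% of all genes). Of widely found members 54.7% were then lower, against 33.8% (3.85% higher) of widely found genes. Complex II then was the lowest at -1.49 and complex IV the nearest to 0 at -0.63. The ratio of mean RPKM gave -0.47 over members, with 13 of 77 lower and 4 higher, against 21.3% and 17.2% of all genes, so by that measure the members did not stand out. The mutant cells also differed in markers. Col1a1, an interstitium marker, was at 1 RPKM or more in 62.1% of them and 16.7% of cap cells. Foxd1 and Meis1, of the same list, went the other way (17.2% against 22.2% and 89.7% against 94.4%). The other listed interstitium markers were found in larger shares of mutant cells. The part of these marker differences in the subunit differences was not tested. Both groups lie in pool 3, though on different dates.

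Wild-type interstitium cells had higher subunit levels than E18.5 cap cells with all cells, and the mean difference was near 0 without pseudogene-high cells. With all cells 14 of 79 members were higher and 0 lower, against 5.94% and 2.7% of all genes, and the mean was 0.60. Of 75 widely found members 18.7% were higher, against 10.3% higher and 5% lower of widely found genes. Ndufa4 (1.53), Uqcrb (1.33), Cox5a (1.42) and Atp5o (1.23) led complexes I, III, IV and V, and Uqcrfs1 stood at -0.76. Without these cells the mean was -0.03, with Cox5a alone higher and Ndufv1 and Cox7a2l lower (4.2% and 5.57% of all genes, 6.22% and 9.75% of widely found genes). In 35 interstitium and 26 cap cells with 3000 to 5000 genes the mean was 0.88 with 39 members higher and 0 lower (10.6% and 5.13% of all genes), and in 26 and 14 of these that were not pseudogene-high it was 0.18 with 9 higher and 5 lower (9.56% and 9.13%). Within pool 2, the only pool named in the titles of both groups, 74 cap and 22 interstitium cells differed by 0.35 with 8 higher and 0 lower (7.24% and 5.34% of all genes), and 54 and 18 without pseudogene-high cells by -0.33 with 2 and 5 (5.99% and 9.39%). Interstitium cells of pool 2 and pool 3 scored 5.16 ± 0.97 and 5.48 ± 0.99 (n = 22 and 49).

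Cox5a and Cox7a2l were among the 3 members past 1 log2 unit between interstitium and cap cells without pseudogene-high cells. The shares of members higher and lower, 1.27% and 2.53%, lay below the 4.2% and 5.57% of all genes. This is therefore no result about the members as a set. The groups also differ in date and, for most interstitium cells, in pool. Cox5a (chromosome 9, 57521232 to 57532426) ran over 0, 59.3 and 467 RPKM in the 54 other cap cells and 0, 124 and 536 in the 62 other interstitium cells, a difference of 1.0, or 1.42 with all cells. Cox7a2l (chromosome 17, 83501917 to 83514333) ran over 3.92, 244 and 818 RPKM in these cap cells, 0, 121 and 542 in these interstitium cells and 0, 104 and 1825 in the 40 other mutant cells. The difference of interstitium from cap was -1.72, or -0.57 with all cells, and cap cells at E13.5 had a median of 89.3. Cox7a2l was found in 54 of 54 of these E18.5 cap cells, and the ranges of all groups overlapped.

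Between ages, cap cells had lower subunit levels at E18.5 than at E13.5 with all cells, for 53 of 77 members with 1 higher (14.5% and 2.53% of all genes) and a mean of -1.09. Of 75 widely found members 70.7% were lower, against 26.7% (3.61% higher) of widely found genes. Without pseudogene-high cells the mean was -0.35, with 7 lower and 6 higher (7.66% and 5.26%), or 9.21% and 7.89% of 76 widely found members against 13.1% and 7.83% of widely found genes, so neither share stood out. The 6 were Ndufa6 (1.76, a small matrix-side subunit), Cox6b2 (1.39), Ndufv1 (1.23), Cox7a2l (1.22), Ndufv3 (1.09) and Ndufa1 (1.07). The 7 were Cox5a (-1.62), Uqcrq, Ndufs7, Ndufa2, Sdhd (-1.22), Ndufb6 (-1.17) and Atp5k. Ndufa6 had medians of 69.8 RPKM in all E13.5 cap and 158 in all E18.5 cap cells.

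Mutant cells of the 2 ages differed little with all cells: 12 of 78 members were lower and 6 higher at E18.5 (11.5% and 6.69% of all genes), mean -0.20. Of widely found members 16% and 8% were lower and higher, against 21.5% and 12.9% of widely found genes. Scaling by median ratios gave 8 lower and 11 higher (9.69% and 7.97% of all genes), and scaling to the same RPKM sum 11 and 8 (11% and 7.28%). Without pseudogene-high cells 37 were lower and 1, Cox6b2, higher (20.2% and 5.5%), mean -1.03. Of widely found members 49.3% were then lower, against 37.2% (8.35% higher) of widely found genes. In cells with 3000 to 5000 genes 13 were lower and 10 higher (12.5% and 8.31% of all genes), mean -0.04, and without pseudogene-high cells as well 29 and 3 (18.8% and 7.44%), mean -0.76. Ndufa1 (-2.50), Cox5a (-2.17) and Sdhb (-1.34) were lower with all cells, and Ndufb11 (1.60) was highest. Cox4i1 turned from 1.07 to -0.56 without pseudogene-high cells. Pool and date differ along with age in these comparisons and cannot be told apart from it.

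**Figure D4:**
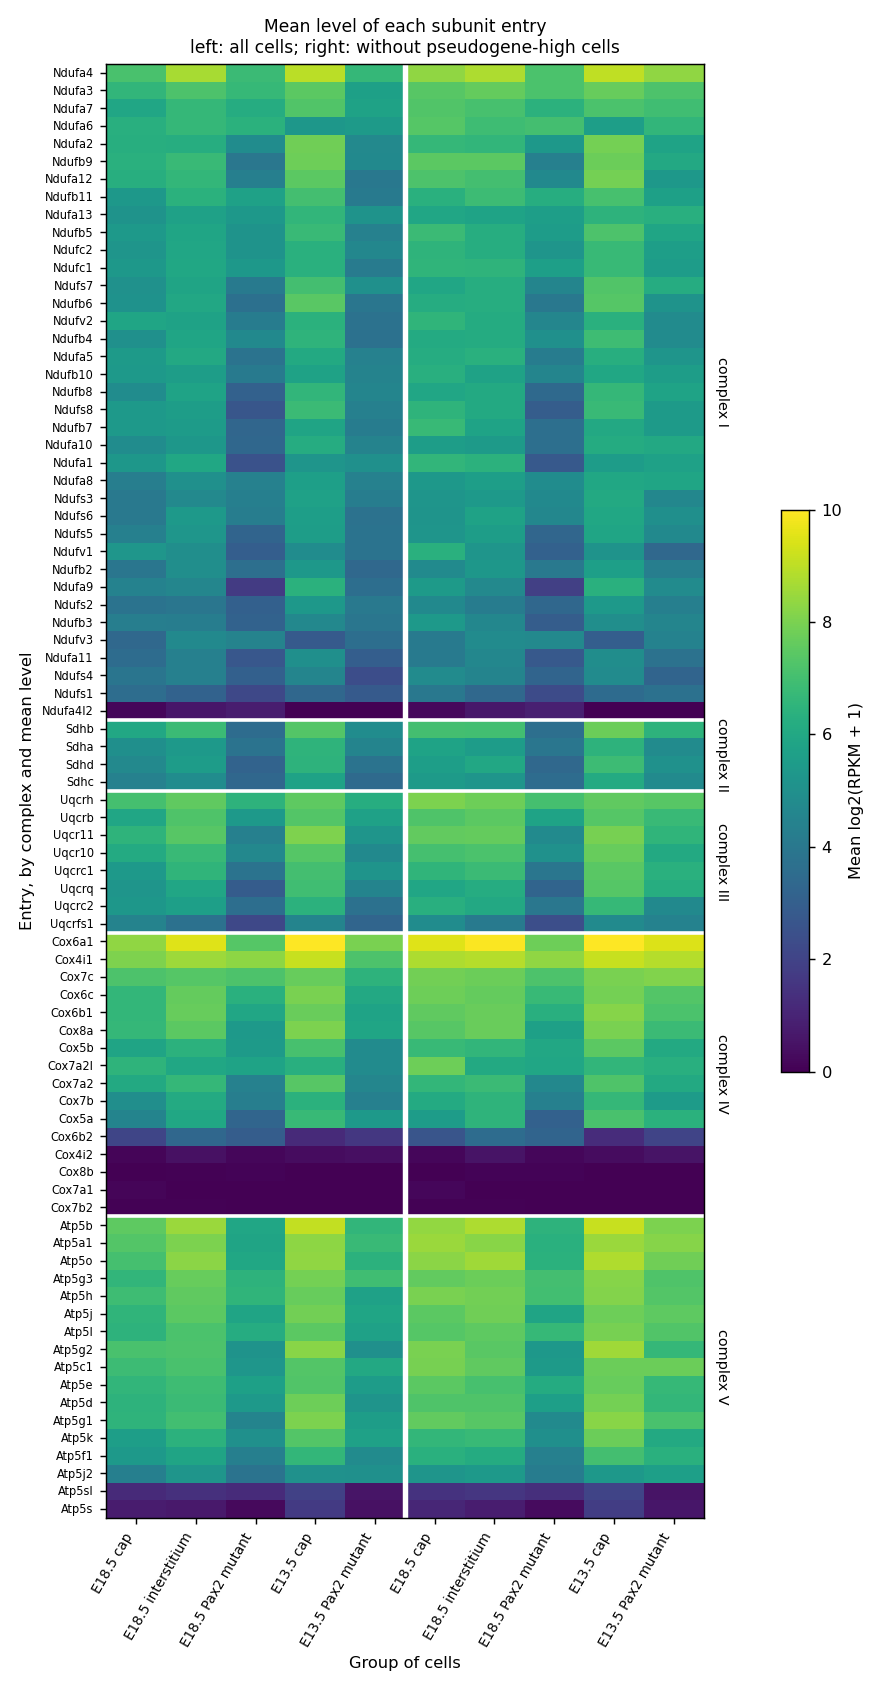
Mean log2(RPKM + 1) (colour) of each member found in any labelled cell (rows, by complex and mean level) in the 5 groups (columns), with all cells on the left and without pseudogene-high cells on the right. The E18.5 mutant columns are dark for Ndufa9, Ndufa1, Ndufs8 and Uqcrq, and Cox4i1 stays at 8.29 and 8.33 in them.

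Several subunits have isoforms in other tissues, and these cells mostly held the general form. Cox6a1 had a median of 681 RPKM in E18.5 cap cells while Cox6a2, of heart and skeletal muscle, was at 0 throughout. Cox7a1 and Cox8b, also of muscle, were found in at most 5.41% and 2.27% of the cells of any group. Cox4i2, an isoform known from lung and from low oxygen, was found in 9 of 71 interstitium cells (12.7%, interval 5.96 to 22.7%), against 2 of 74, 1 of 44, 1 of 18 and 2 of 29 in the other groups in order. Ndufa4l2, an Ndufa4 relative known from pericytes and low oxygen, was found in 2, 8, 5, 0 and 0 cells by group.

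Cox6b2, described as the testis form of Cox6b1, was the exception. It was at 1 RPKM or more in 30 of 74 (40.5%, interval 29.3 to 52.6%), 47 of 71 (66.2%, 54 to 77%), 24 of 44 (54.5%, 38.8 to 69.6%), 5 of 18 (27.8%, 9.69 to 53.5%) and 11 of 29 cells (37.9%, 20.7 to 57.7%) by group. Its median and highest values were 0 and 202, 16.2 and 539, 7.85 and 293, 0 and 45.5, and 0 and 118 RPKM in that order. Cox6b1 had medians of 191, 217, 152, 300.0 and 225 RPKM. In E18.5 mutant minus cap cells Cox6b2 stood at 0.86 and Cox6b1 at -0.68, or 0.59 and -1.27 without pseudogene-high cells, and in interstitium minus cap cells Cox6b2 stood at 1.27.

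**Figure D5:**
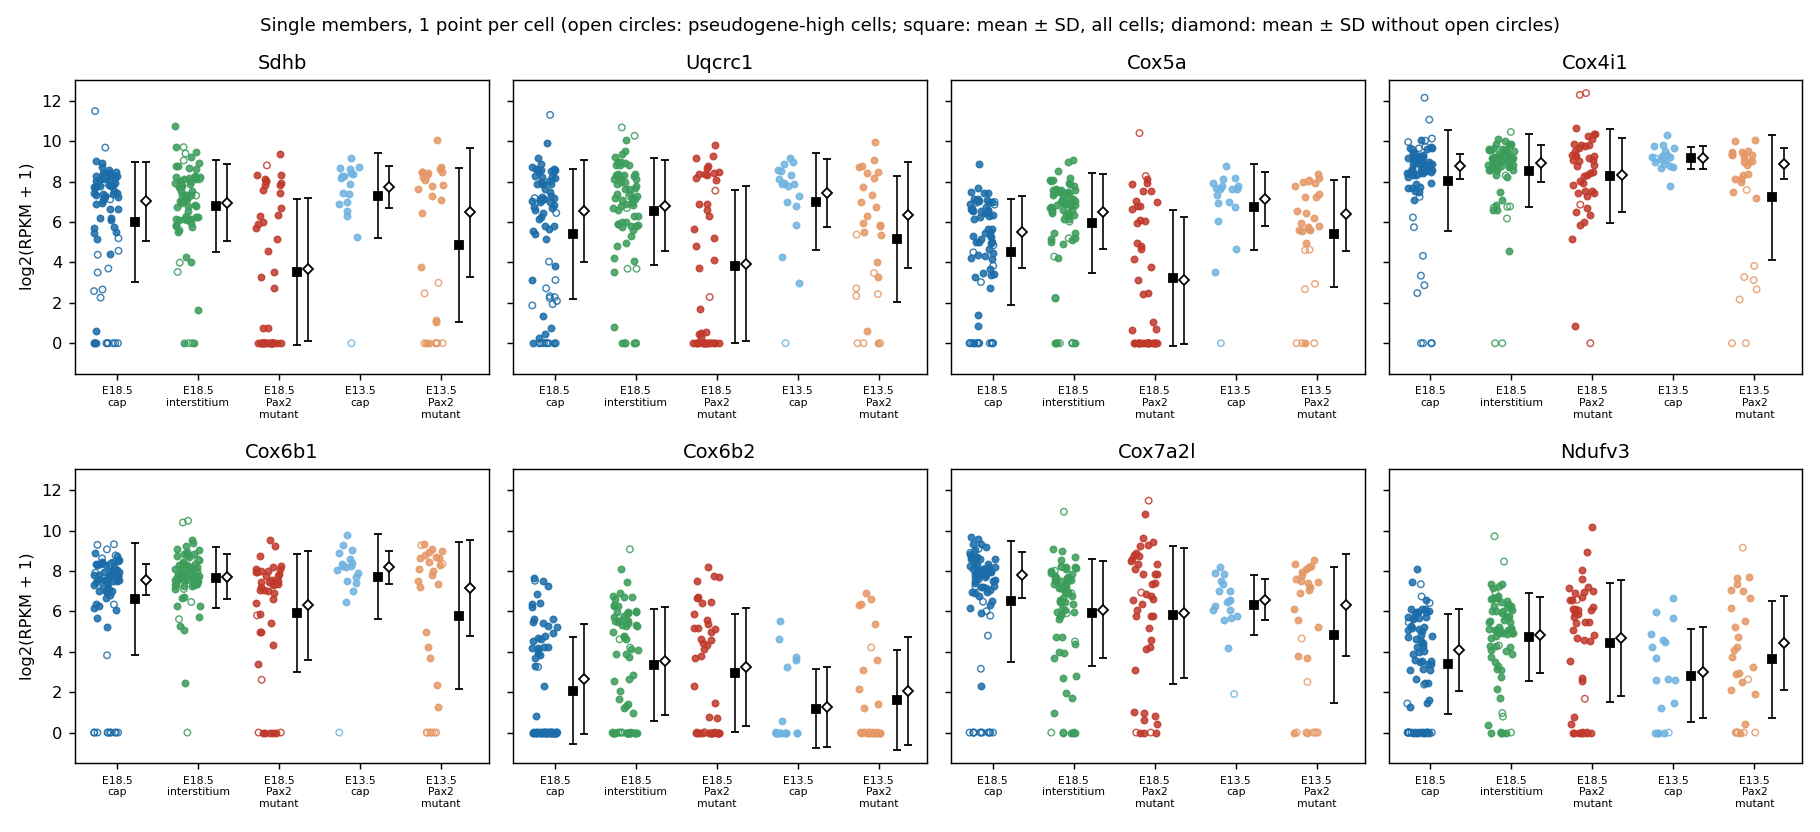
log2(RPKM + 1) (vertical axis) of 8 members, 1 point per cell, in the 5 groups; open circles are pseudogene-high cells, squares the mean ± SD of all cells and diamonds that without open circles. Sdhb and Uqcrc1 show many mutant cells at 0 beside others at the level of cap cells, and Cox6b2 has many cells at 0 in every group.

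The complexes varied together from cell to cell, least so in E13.5 cap cells, the smallest group (n = 18). Spearman's rho between the scores of 2 complexes had a median of 0.75 over the 10 pairs in E18.5 cap, 0.52 in interstitium, 0.71 in E18.5 mutant, 0.18 in E13.5 cap and 0.90 in E13.5 mutant cells. Without pseudogene-high cells it was 0.43, 0.37, 0.61, 0.02 and 0.78. With all cells the lowest pair by group stood at 0.69, 0.28, 0.44, -0.25 and 0.73. In E13.5 cap cells the highest pair was 0.37. The complexes of a cell share its library and its number of genes found.

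Other genes of energy metabolism were read from lists in the same way. In E18.5 mutant minus cap cells without pseudogene-high cells, 61 of 75 mitochondrial ribosomal protein genes were lower (mean -1.84), as were 14 of 18 genes of pyruvate dehydrogenase and the citric acid cycle (-1.94), 11 of 20 of electron carriers and ATP export (-1.63) and 10 of 14 of glycolysis (-2.13). None of these lists had a gene higher by 1 log2 unit. Over all genes 30.6% were lower and 4.19% higher, and over widely found genes 53.2% and 5.42%. Assembly factors were lower for 4 of 13 of complex I (-0.99) and 8 of 25 of complexes II to V (-0.84), regulators of mitochondrial gene expression for 5 of 13 (-0.78), uncoupling and alternative respiration for 2 of 7 (-0.97) and cytosolic ribosomal proteins for 22 of 87 (-0.80). Of these, the assembly factors, the uncoupling list and the cytosolic ribosomal proteins had shares near or below the 30.6% of all genes. That is no result about those lists. The share of the regulators lay between the 30.6% of all genes and the 53.2% of widely found genes. Electron carriers and ATP export lay near that 53.2%, so neither share is a result about its list. With all cells the means were -1.28, -1.34, -1.16, -1.78, -0.74, -0.55, -0.61, -0.70 and -0.50 in the same order. The subunits stood at -1.60 and -0.95 beside them.

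Single genes of these lists, chosen after their values were seen, differed widely. Slc25a5, an ADP/ATP carrier of the inner membrane, had mean levels of 9.06 in E18.5 cap, 9.01 in interstitium and 3.57 in E18.5 mutant cells without pseudogene-high cells, a mutant to cap difference of -5.49 (-4.25 with all cells). Its paralogue Slc25a4 stood at 8.81, 8.88 and 8.48, a difference of -0.33. Cycs, cytochrome c, stood at 5.44, 5.77 and 2.77 (-2.68). Atpif1, the inhibitor of ATP synthase, stood at 7.51, 7.45 and 5.98 (-1.53). Of the regulators, Nrf1 stood at 1.74, 2.58 and 1.33, Gabpa at 2.21, 1.78 and 1.03, and Tfam, the packaging factor of mitochondrial DNA, at 3.06, 3.16 and 1.41.

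At E13.5 the mutant to cap means without pseudogene-high cells were -1.16 for mitochondrial ribosomal proteins (42 of 75 lower, 2 higher), -0.87 for pyruvate dehydrogenase and the citric acid cycle, -0.60 for glycolysis and -0.62 for cytosolic ribosomal proteins, beside -0.92 for the subunits. Over all genes 19.3% were then lower and 3.03% higher, and over widely found genes 33.8% and 3.85%. In interstitium minus cap cells they were -0.30, -0.42, -0.37 and -0.29, beside -0.03.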

How the data were processed

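Single-cell RNA-seq values were the authors' deposited RPKM, 1 column per cell. Per the submitters' processing notes, TopHat and the mm10 build were used; the TopHat version and the counting step are not given in the sources used here. All 36186 entries were read, and levels were log2(RPKM + 1). Cells were grouped by label, and 1 cell with contradictory labels entered no group. Group differences are differences of mean level between cells of groups that count as 1 sample each, so no test was run. Members were kept that reached 1 RPKM in at least 10% of either group, and 1 log2 unit counted as a difference. Every comparison was repeated without cells at 20000 RPKM or more for LOC100503946. Shares carry 95% exact Clopper-Pearson intervals. Python 3.11.15, numpy 2.4.6, pandas 2.3.3, scipy 1.17.1 and matplotlib 3.10.9 were used. The calculation of differences was tested on copied interstitium cells with known changes put in. Because both groups of that test held the same cells, it did not cover differences of depth or genes found between groups. The members and gene lists were chosen with earlier results of these data known. Members named with values are paralogue sets, defining subunits, extremes of each complex or comparison, and single members chosen after their values were seen. Alternatives were other pseudocounts (0.1 and 10), scalings, filters, a ratio of mean RPKM, cells with 3000 to 5000 genes and 1 pool.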

Additional observations from a re-analysis of the deposited data

How the results depend on the processing

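No paired analysis was possible because the labels tie no cells together across groups. Read depth is unknown, date and pool differ between most groups, and E13.5 cap cells number too few with 3000 to 5000 genes for a value. Combining 3000 to 5000 genes or pool 2 with leaving out pseudogene-high cells, and scaling without the pseudogene, were chosen after seeing the data. Mean member differences ranged over the alternatives from -1.60 to 0.26 for E18.5 mutant minus cap, -2.17 to -0.36 for E18.5 mutant minus interstitium, -2.51 to -0.47 for E13.5 mutant minus cap, -0.33 to 0.88 for interstitium minus cap, -1.45 to -0.35 for cap by age and -1.03 to 0.03 for mutant by age. Median-ratio scaling moved the median of all genes in E18.5 mutant minus cap from -0.40 to -0.26, in E18.5 mutant minus interstitium from -0.41 to -0.29 and in E13.5 mutant minus cap from -0.45 to -0.29, and the members relative to it from -0.54 to -0.36, -1.12 to -0.96 and -1.40 to -1.19. Of 174 alternatives for the mean differences and counts, 48 moved a count by over 1.5 times. No mean difference moved by more than the SD between cells, but its sign turned in E18.5 mutant minus cap (0.26, 3000 to 5000 genes), interstitium minus cap (-0.03 without pseudogene-high cells, -0.33 in pool 2 without them) and mutant by age (0.03, ratio of mean RPKM). The cause was not tested.

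Percentages in brackets in this paragraph are the shares over all genes in the same setting and direction. With a pseudocount of 0.1, higher members numbered 33 in interstitium minus cap (13%) and 3 in E18.5 mutant minus cap (7.62%). They numbered 2 in cap by age (8.53%) and 12 in mutant by age (12.8%), where 24 were lower (25.7%). With a pseudocount of 10, higher members numbered 2, 0, 0 and 0 in the same order (1.62%, 1.83%, 0.341% and 2.16%). Lower members numbered 17 in E18.5 mutant minus cap (5.17%) and 31 in E18.5 mutant minus interstitium (5.86%). They numbered 17 in cap by age (2.82%) and 3 in mutant by age (2.03%). Median-ratio scaling gave 2 higher in E18.5 mutant minus cap (5.59%) and 11 in mutant by age (7.97%). Without pseudogene-high cells the counts, higher and lower, were 1 and 2 in interstitium minus cap (4.2% and 5.57%). In E13.5 mutant minus cap they were 1 and 42 (3.03% and 19.3%), and in cap by age 6 and 7 (5.26% and 7.66%). Mutant by age gave 1 and 37 (5.5% and 20.2%), and E18.5 mutant minus cap 0 higher (4.19%). The ratio of mean RPKM gave 3 and 9 in E18.5 mutant minus cap (18.6% and 22.3%). It gave 1 and 10 in E18.5 mutant minus interstitium (14.7% and 21.2%) and 4 and 13 in E13.5 mutant minus cap (17.2% and 21.3%). Cap by age gave 2 and 6 (15% and 13.4%), interstitium minus cap 2 higher (13%) and mutant by age 4 lower (21.7%). Cells with 3000 to 5000 genes gave 20 and 7 in E18.5 mutant minus cap (9.17% and 10.5%). They gave 2 and 28 in E18.5 mutant minus interstitium (4.97% and 11.5%). Higher members numbered 39 in interstitium minus cap (10.6%) and 10 in mutant by age (8.31%). Leaving out pseudogene-high cells as well gave 4 higher in E18.5 mutant minus cap (7.37%). It gave 9 and 5 in interstitium minus cap (9.56% and 9.13%) and 3 and 29 in mutant by age (7.44% and 18.8%). Pool 2 gave 8 higher in interstitium minus cap (7.24%), and 2 and 5 without pseudogene-high cells (5.99% and 9.39%). Among named members that differed by at least 1 log2 unit with all cells, the sign turned in 9 cases, given next. Smaller differences also turned, as for Cox4i1 in E18.5 mutant minus cap (0.23 to -0.43) and Atp5j2 at E13.5 (-0.04 to 0.29) without pseudogene-high cells. Without pseudogene-high cells in pool 2, Uqcrb and Atp5o stood at -0.27 and -0.39 in interstitium minus cap. In E18.5 mutant minus cap, cells with 3000 to 5000 genes gave 0.49 for Sdhc, 0.092 for Sdhd and 0.24 for Uqcrc1, and the ratio of mean RPKM 0.24 for Sdhc and 0.44 for Cox5a. Cox4i1 in mutant by age stood at -0.56 without pseudogene-high cells and -0.95 with 3000 to 5000 genes as well.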

Other observations

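A single E13.5 cell had labels that gave both cap and interstitial origin and was placed in no group. Its module score was 6.25, with 75 of 87 members at 1 RPKM or more, 6570 genes found and LOC100503946 at 3458 RPKM.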
